A study of Drosophila melanogaster with 27 samples.

Results

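The genes described here encode the E2F transcription factors, the retinoblastoma-family proteins and the core of the dREAM complex of Drosophila melanogaster. They were taken as a named list of 9 genes, E2f1, E2f2, Dp, Rbf, Rbf2, mip120, mip130, mip40 and Caf1-55, and all 9 were found among the 13922 protein-coding genes of the RefSeq Release 6 (dm6) table on 2L, 2R, 3L, 3R, X and 4. Each gene body and its 10 kb flanks were compared with the peak list for H4K20me1, the single methyl mark on lysine 20 of histone H4 that Set8 deposits. The peaks came from CUT&RUN, in which an antibody tethers a nuclease that releases the DNA it has bound, on wing imaginal discs of female Oregon-R (wild-type) wandering larvae of instar 3 raised at 25 °C, with 20 discs in a library. Antibody libraries (n = 3) and libraries without primary antibody (n = 3) of that same genotype stand behind a single list, which gives positions and no value per library. The spread between libraries and the read depth are therefore unknown, and no difference below was tested. Set8 mutant and histone-replacement groups of the same study were not analysed here.

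E2F proteins bind DNA as heterodimers with Dp. E2f1 activates genes of DNA replication and cell cycle entry, and E2f2 acts mainly as a repressor. Rbf binds E2F and holds it inactive until cyclin-dependent kinases phosphorylate it, and in flies E2f2, Dp, an Rbf protein, Mip40, Mip120, Mip130, Caf1-55, Lin-52 and Myb also assemble into dREAM, which keeps many developmental genes silent. L(3)mbt, a reader of methylated histones, was purified with this complex. In the growing wing disc E2f1 sets the rate of entry into S phase. H4K20me1 is known from many cell types as a mark of the bodies of expressed genes, and its level varies over the cell cycle.

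The deposited list held 6914 peaks of 150 to 68600 bp with a median width of 1100 bp. All 9 genes had a peak in the body by the rule of 1 bp of overlap, against 38.3% of all protein-coding genes and 44.5% of those between the shortest and the longest of the 9 (1092 to 40568 bp). At least 75% of the body was covered in 5 of the 9 genes, against 11.1% of all protein-coding genes and 12.4% of those in the same length range. Only 3 of the 9 (Dp, Rbf and Caf1-55) passed that share when stretches shared with another protein-coding gene were left out, where mip120 stood at 73.7% and mip130 at 32.5%. The median covered share was 75.3% over the 9 genes (52.0% without those stretches) and 0% over all protein-coding genes, of which most had no peak. Together 12 peaks touched the bodies and 33 lay wholly or partly within the bodies and 10 kb flanks. The 9 genes lie too far apart for any peak, at most 68600 bp wide, to reach 2 of them. Another protein-coding gene overlapped 5 of the 9 (E2f2, Dp, Rbf2, mip120 and mip130), against 41.4% of all protein-coding genes. A peak somewhere in the body or flanks was found for 9 of 9 genes, which says little because 72.4% of all protein-coding genes had one too.

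By their whole bodies, the genes fell into a well-covered and a sparsely covered set. Caf1-55 was covered to 88.7%, Dp to 80.6%, Rbf to 79.2%, mip120 to 78.6% and mip130 to 75.3%. The remaining 4 lay far lower, with E2f2 at 42.7%, Rbf2 at 36.7%, E2f1 at 32.8% and mip40 at 4.21%. No gene of the list lay between 42.7% and 75.3%, so the heterodimer partner, the main Rb protein, both large Mip proteins and the histone-binding subunit were on one side, and both E2F genes, the second Rb gene and the smallest Mip gene on the other. The split did not hold on the stretches that the genes share with no other protein-coding gene, where mip130 fell to 32.5% and E2f2 stood at 52.0%, between the sets. It also takes no account of gene length. E2f1, the longest gene of the list (40568 bp), had a low share but the most covered sequence (13300 bp). Its 32.8% lay slightly above the median of genes with a peak in its own length decile (29.6%). E2f2, Rbf2 and mip40 lay below the medians of their deciles.

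**Figure D1:**
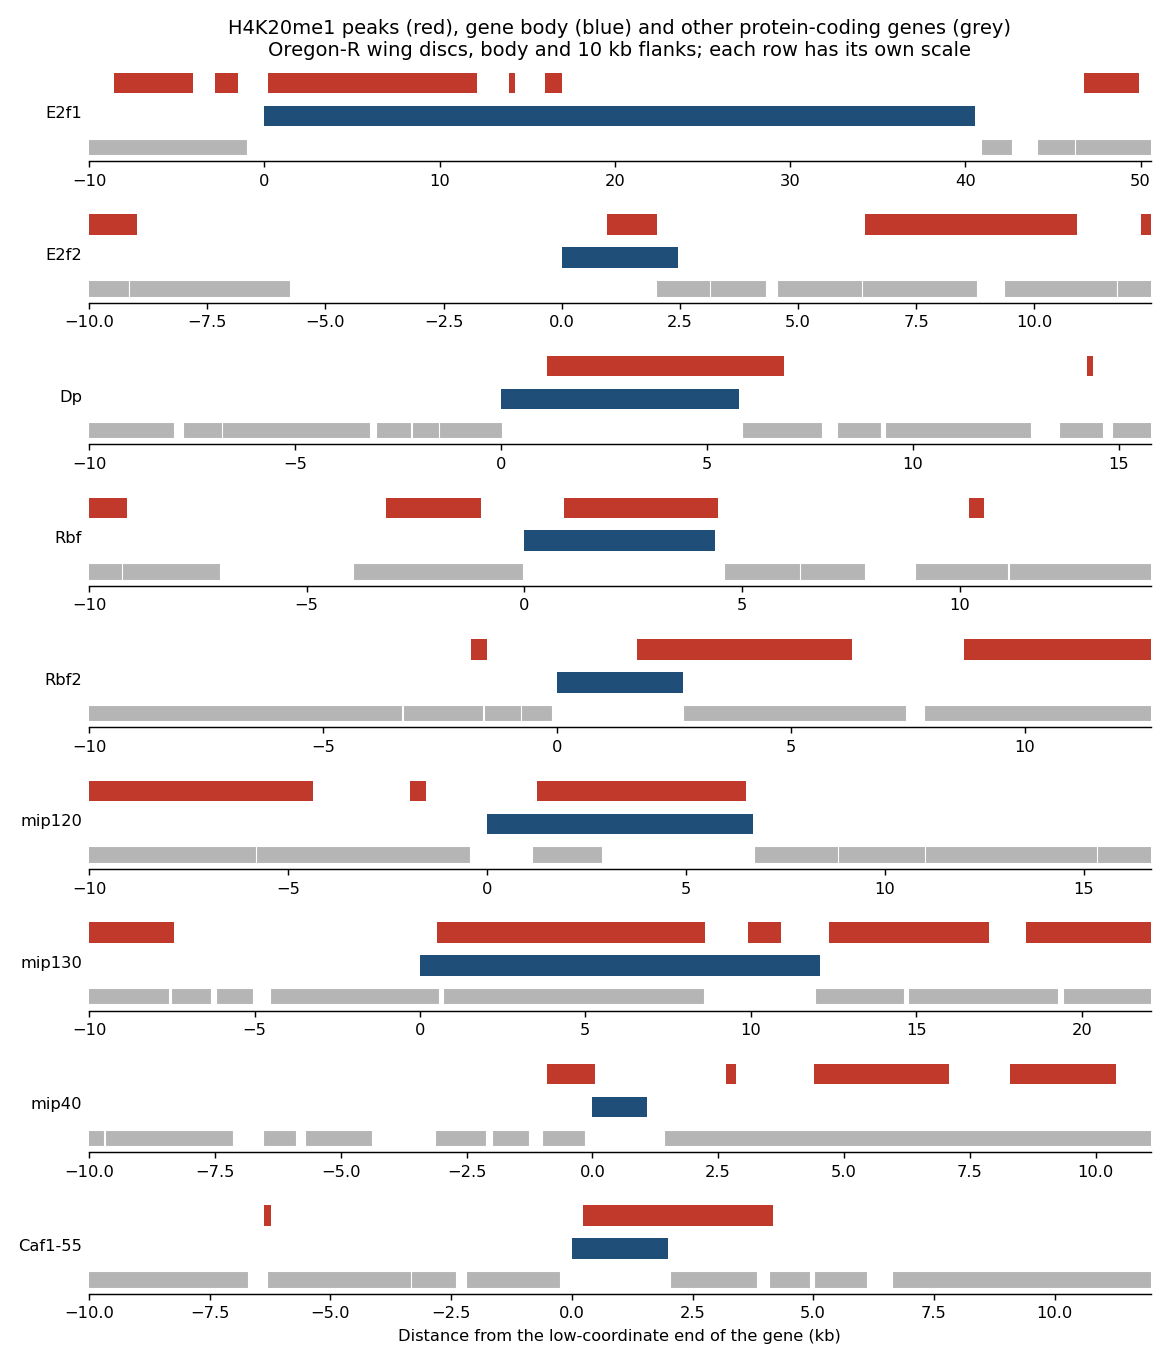
Each row shows the deposited H4K20me1 peaks (red), the gene body (blue) and other protein-coding genes (grey) over the body and 10 kb flanks of a gene, with distance from the low-coordinate end in kb on the x axis and a scale of its own per row. The red bars reach across most of Dp, Rbf, mip120, mip130 and Caf1-55, lie over the low-coordinate part of E2f1, and only touch mip40 at its edge.

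E2f1, which encodes the activator E2F, is by far the longest of the genes (3R 21620304 to 21660871, 40568 bp) and overlaps no other protein-coding gene. It carried 3 peaks of 11950, 350 and 1000 bp that covered 13300 bp. The first began 197 bp inside the low-coordinate end, and only 3.23% of all peaks were at least as wide. The last of the 3 ended 16997 bp from the low-coordinate end. Up to that point, which the peaks themselves set, 78.2% was covered, with gaps of 1800 and 1700 bp between peaks. The other 23571 bp (58.1% of the gene) held no peak, so the peaks lay on one side of this gene. The microRNA genes mir-998 and mir-11, which are processed from an intron of E2f1 and lie within it, were both inside the widest peak over their whole 143 and 75 bp, whereas 3 non-coding RNA genes elsewhere in E2f1 (asRNA:CR46055, lncRNA:CR46056 and lncRNA:CR46057) had none.

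E2f2, the gene of the repressor E2F (2L 21154293 to 21156749, 2457 bp), had 1 peak of 1050 bp that lay wholly inside the body. It left 958 bp free at the low-coordinate end and 449 bp at the other, and covered 72.0% of the middle 50% of the gene but 13.4% of the outer 25% at both ends combined. The neighbour Mpp6 overlaps E2f2 by 462 bp, but only 13 bp of the peak fell in Mpp6. The stretch that belongs to E2f2 alone was covered to 52.0%, so this peak can be placed in E2f2.

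Dp encodes the partner through which both E2F proteins bind DNA (2R 13222433 to 13228202, 5770 bp). A single peak of 5750 bp covered 4652 bp of it, leaving free only the first 1118 bp at the low-coordinate end. It ran past the high-coordinate end by 1098 bp and covered 1025 bp (52.3%) of the next gene, Pex13, which encodes a peroxisomal import protein. On the other side Fsn overlaps Dp by 27 bp and had no peak, nor did any other gene in the 10 kb below Dp. The peak as listed thus starts inside Dp and reaches into Pex13.

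The retinoblastoma genes were covered in different ways. In Rbf (X 797090 to 801479, 4390 bp), the Rb protein that restrains E2f1, a peak of 3550 bp lay with 98.0% of its length inside the body, covered all but the first 911 bp, and reached 71 bp beyond the high-coordinate end without touching another protein-coding gene. In Rbf2 (3R 15965446 to 15968138, 2693 bp), the second Rb protein, which pairs with E2f2, the only body peak was 4600 bp wide but lay with just 21.5% of its length in Rbf2. It covered 988 bp at the high-coordinate end of Rbf2, left the other 1705 bp free and placed 3617 bp in mor (75.7% of that gene), a subunit gene of the Brahma remodelling complex that overlaps Rbf2 by 5 bp. The midpoint of this peak lay outside Rbf2, so what Rbf2 carries is the edge of a peak centred on mor.

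Among the Mip genes, mip120 and mip130 were marked over most of their length, but each holds another gene. The DNA-binding subunit gene mip120 (2R 13506430 to 13513112, 6683 bp) had 1 peak of 5250 bp wholly inside the body, from 1271 bp after the low-coordinate end to 162 bp before the other. The nested gene mEFTu1, which encodes a mitochondrial elongation factor, took up 1632 bp of it. Without the nested stretch mip120 was still covered to 73.7%, and Vmat, a transporter gene that starts 19 bp beyond it, had no peak.

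In mip130 (X 1908239 to 1920318, 12080 bp), the Lin-9 family subunit, the picture changed once overlapping genes were taken out. Its larger peak of 8100 bp held the whole of Rbcn-3B (7906 bp), a regulator of vesicle acidification nested in mip130, and exceeded it by only a short margin on either side. A further 77 bp fell in Edem1. The 3432 bp of mip130 shared with no other protein-coding gene (28.4% of its body) were covered to 32.5%, mostly by a second peak of 1000 bp that touched no other gene. The covered share of 75.3% for mip130 therefore rests largely on sequence that it shares with Rbcn-3B.

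The smallest gene, mip40 (2R 19291105 to 19292196, 1092 bp), encodes the Lin-37 family subunit and met the overlap rule by 46 bp. These were the edge of a 950 bp peak of which 4.84% lay in mip40 and 762 bp in Fkbp12, an immunophilin gene whose body ends 142 bp away and was covered to 89.2%. The other 1046 bp of mip40 held no peak, and Tab2, the nearest gene on the other side, had 3 peaks that covered 41.7% of it. Of the 9 genes mip40 was the closest to the limit of the rule, and none fell outside it.

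Caf1-55 encodes the WD-repeat histone chaperone that dREAM shares with the CAF-1, NURF and Polycomb complexes (3R 15225576 to 15227564, 1989 bp). A peak of 3950 bp began 225 bp inside its low-coordinate end, covered the rest of the gene and extended 2186 bp further. There it covered all of Art3, an arginine methyltransferase gene 40 bp away, and 86 bp of mRpS10. Slightly less of the peak (44.7%) lay in Caf1-55 than outside it, and its midpoint lay outside Caf1-55, as with the peak at Rbf2. On the other side CG31344 had no peak.

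Within the bodies, peaks covered the middle more than the ends in 6 of the 9 genes, against 50.9% of the protein-coding genes with a peak. The middle 50% was covered completely in Dp, Rbf, mip120 and Caf1-55 and to 92.6% in mip130, whereas it was covered to 23.4% in Rbf2, 16.5% in E2f1 and 0% in mip40. Of the 18 gene ends 5 lay under a peak, compared with 37.2% of the ends of all protein-coding genes with a peak. These were the high-coordinate ends of Dp, Rbf, Rbf2 and Caf1-55 and the low-coordinate end of mip40. The gene table gives no strand, so promoters and 3′ ends are not told apart here.

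**Figure D2:**
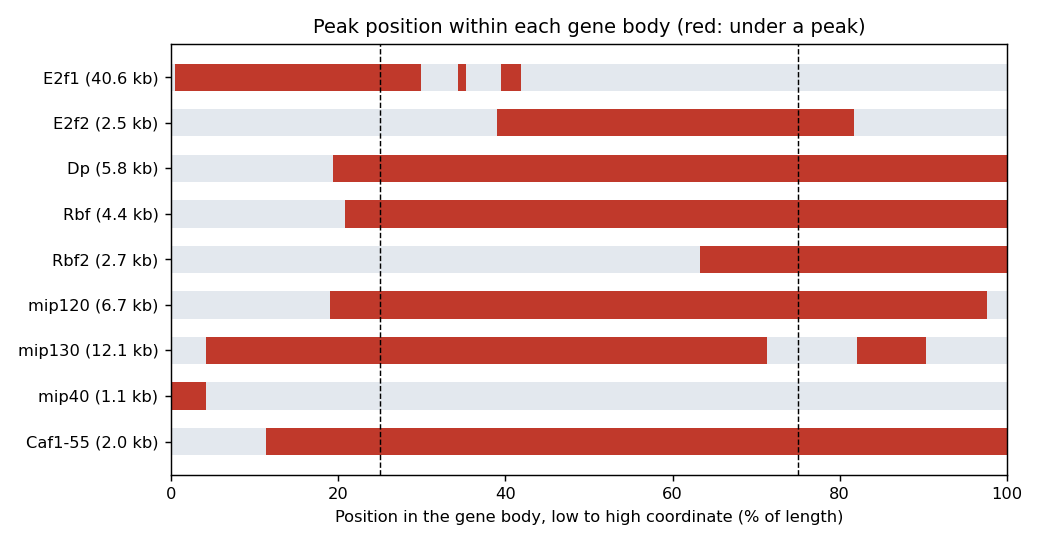
Position in the gene body from low to high coordinate (x axis, % of length) is shown for each gene (rows, with length in kb), red where a peak lies and pale where none does; dashed lines mark the middle 50%. Dp, Rbf, mip120 and Caf1-55 are red across the whole middle, E2f1 only on its low-coordinate side, and Rbf2 and mip40 only at an end.

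Long genes are met by a peak more often than short ones, so each gene was also set beside the protein-coding genes of its own length decile. Of genes as long as Caf1-55, 36.9% had any peak and 8.41% were covered to at least the same share. That last share was 12.4% for Dp, 13.2% for Rbf, 13.4% for mip120 and 15.2% for mip130. By whole bodies, and with genes without a peak counted, these genes ranked near the upper end for their length. Among genes of its decile with a peak, mip130 lay below the upper quartile (75.3% against 77.3%). Without stretches shared with another gene it was covered to 32.5%. The share covered at least as far was 22.8% for E2f2, 24.4% for Rbf2 and 24.5% for E2f1. For mip40 it was 27.5%, close to the 28.7% of genes of that length with any peak, so mip40 ranked near the bottom of the genes that had one. Compared only with genes that had a peak, 6 of the 9 lay above the median of their decile. E2f2 (42.7% against 47.8%), Rbf2 (36.7% against 47.8%) and mip40 (4.21% against 39.3%) lay below it, and E2f1 was barely above (32.8% against 29.6%).

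**Figure D3:**
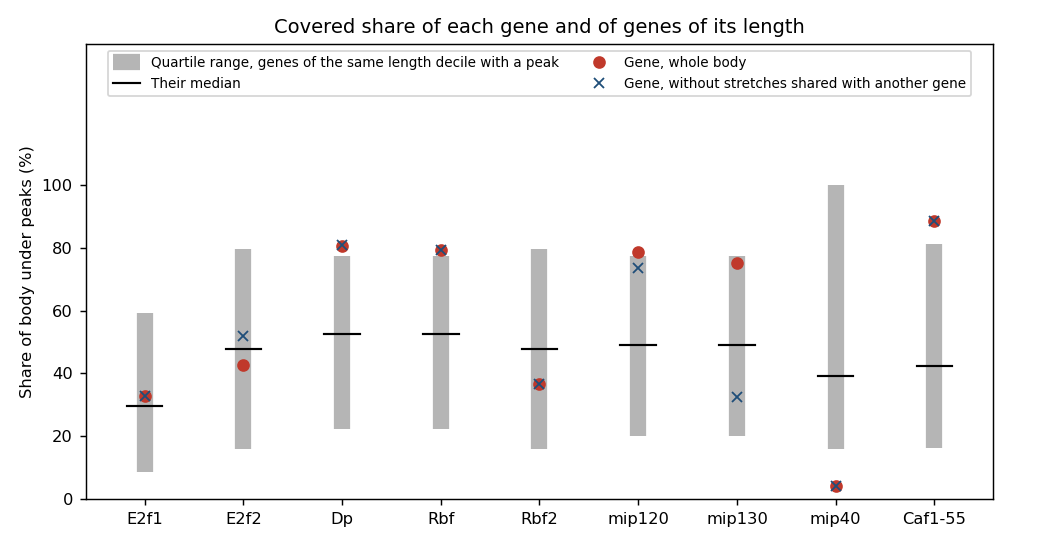
The share of the body under peaks (y axis, %) is given for each gene over its whole body (red points) and without stretches shared with another protein-coding gene (blue crosses); grey bars are the quartile range and black lines the median of genes of the same length decile that have a peak. Removing shared stretches moves mip130 from 75.3% to 32.5% and E2f2 from 42.7% to 52.0%, while the points for Dp, Rbf and Caf1-55 stay above the grey bars.

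The flanks were also covered unevenly. Over both 10 kb flanks together the covered share ranged from 6.24% at Dp to 55.9% at mip130, with a median of 29.5% over the 9 genes and 11.3% over all protein-coding genes. Dp was the only gene below that second value, and 7 of the 9 had a peak on both sides, against 35.9% of all protein-coding genes. Below E2f1, 58.0% of the flank was covered by peaks in InR, the insulin receptor gene that lies 982 bp away. On its other side Archease had no peak, and the only peak in that flank, 3150 bp wide, lay in PolA1, the gene of the catalytic subunit of DNA polymerase alpha and itself a target of E2F.

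The most covered flank was the one above mip130, at 86.2%, where eIF2Bepsilon (covered to 83.9%), which overlaps mip130 by 153 bp, and Ocrl follow. Above Rbf2, 76.0% was covered by the rest of the mor peak and by a 9450 bp peak over Hel89B. Below mip120, 60.2% was covered, chiefly by an 11300 bp peak that runs over drk, a Ras pathway adaptor gene, and into mars, and the flank above mip120 had no peak. Close to Rbf, CG16989 lies 28 bp away and held a peak of 2200 bp that ended 990 bp short of Rbf, while CG13359 on the other side had none. Next to E2f2, del was covered to 4.81% and Coq3 had no peak, and CG32856 next to Rbf2 had no peak. Ocrl, Hel89B and drk were named after their values were seen.

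**Figure D4:**
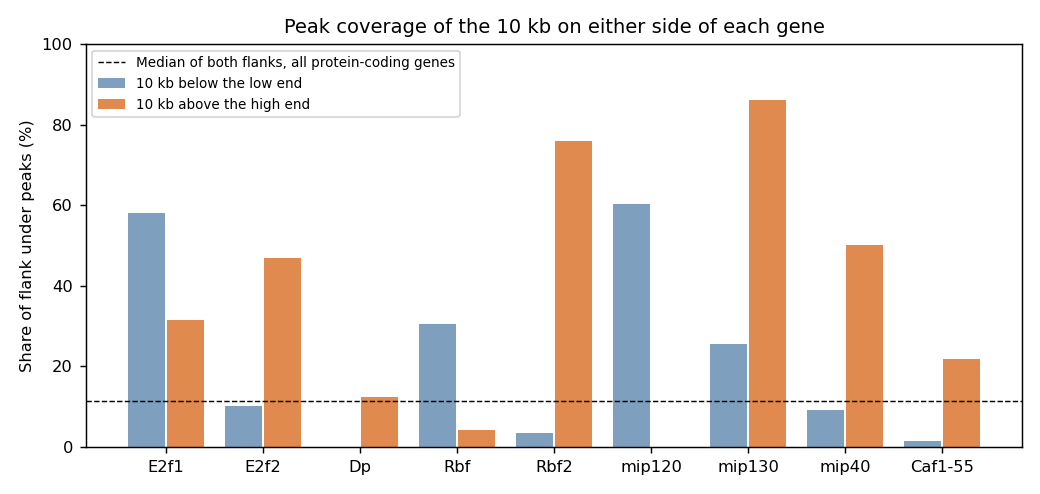
Bars give the share of the 10 kb below (blue) and above (orange) each gene that lies under peaks (y axis, %); the dashed line is the median of both flanks over all protein-coding genes, 11.3%. The flanks of Dp and mip120 each have a side at 0, and the highest bars are those above mip130 and Rbf2.

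Many genes that work with the list had body peaks as well, with covered shares that differed between lists. All 4 further components of dREAM and the related Myb complex had a body peak, against 38.3% of all protein-coding genes, and 2 were covered over at least 50%, against 18.3%. Their median covered share was 49.2%, below the 75.3% of the 9 genes over whole bodies. That value of the 9 was 52.0% without stretches shared with another protein-coding gene, and these partners were not measured that way. HDAC1, the histone deacetylase known as Rpd3, was covered to 56.7%, Myb to 52.4%, l(3)mbt to 46.1% and lin-52 to 9.56%. None of them reached 75% of the body, and 3 of the 4 overlap another protein-coding gene.

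Upstream of Rbf, all 7 genes of its kinases and their regulators had a body peak, against 38.3% of all protein-coding genes. Of the 7, 2 were covered over at least 50%, against 18.3%. Their median covered share was 26.7%. At their median length of 5979 bp, 56.5% of genes in the same length decile had a peak. The F-box gene ago, whose product directs Cyclin E to degradation, was covered completely. CycD and Cdk4, which encode the kinase that phosphorylates Rbf in growing cells, were covered to 74.6% and 49.3%. Cdk2, dap and fzr lay between 21.5% and 26.7%, and CycE, named after its value was seen, carried a single 400 bp peak over 1.94% of its 20570 bp.

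Downstream, 20 of 24 E2F target genes had a body peak and 7 were covered over at least 50%, against 38.3% and 18.3% of all protein-coding genes. Their median covered share was 26.3%, below the 75.3% of the 9 regulators. That value of the 9 was 52.0% without stretches shared with another protein-coding gene, and the targets were not measured that way. CycB, aurA and CycA, which act in mitosis, were covered most, to 88.4%, 77.9% and 71.4%. Mcm5 and Cdc6, which license replication origins, were the longest targets without a peak, and RnrS and Slbp, named after their values were seen, had none either. The replication gene PCNA was covered to 26.3%.

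Germline genes that L(3)mbt or dREAM keeps silent in somatic cells had body peaks less often than the lists described above. Only vas, the gene of a germline RNA helicase, had a body peak among 8 such genes (12.5%, against 38.3% of all protein-coding genes), covering 27.7% of its 12656 bp, and vas overlaps 2 other protein-coding genes. No peak lay in the bodies of AGO3 or piwi, both of the piRNA pathway, nor in those of nanos, bam, aub, krimp or Arp53D. With the 10 kb flanks included, 7 of the 8 had a peak, against 72.4% of all protein-coding genes. The median covered share of the 8 bodies was 0%, as it was over all protein-coding genes. Whether these shares differ from those of other genes was not tested.

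**Figure D5:**
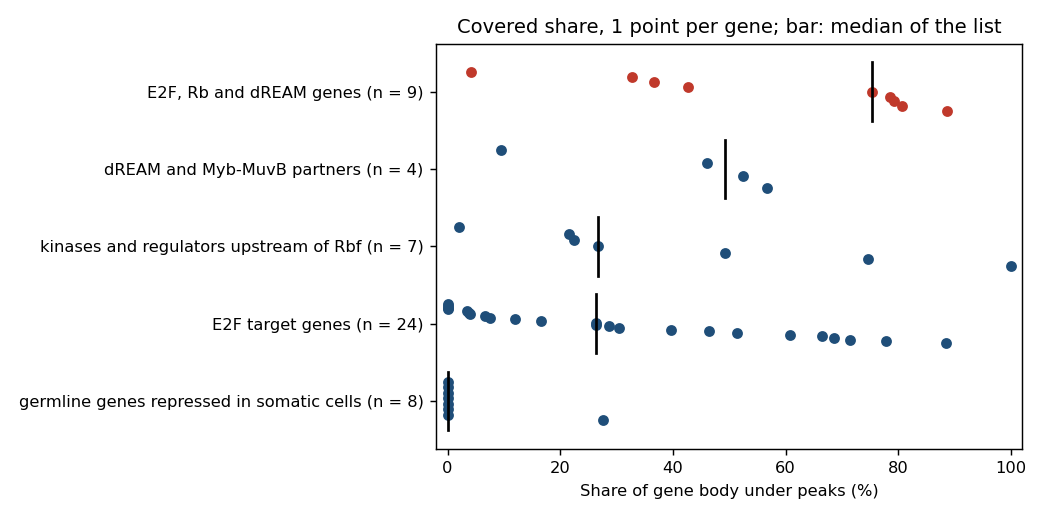
The share of the body under peaks (x axis, %) is shown with a point for each gene in 5 lists (rows); points are spread vertically in order of their value and black bars are list medians. The medians are 75.3% for the E2F, Rb and dREAM genes, 49.2% for their partners, 26.7% for the genes upstream of Rbf, 26.3% for E2F targets and 0% for germline genes. All are for whole bodies, and the first was 52.0% without stretches shared with another protein-coding gene.

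Markers of the tissue were also looked up, although a peak of this mark does not measure expression. Of 8 wing disc markers 5 had a peak, with ap covered to 60.96% and ptc to 47.2%, while vg, wg and dpp had none. A body peak was found in 38.3% of all protein-coding genes and in 51.9% to 57.1% of those in the longest 2 length deciles, and the median length of these markers was 18449.5 bp, so their count lies near the background. Of 12 markers of muscle precursors, hemocytes, neurons and trachea, 4 had a peak, with at most 26.1% covered. None of the 4 hemocyte markers had any. All 12 except NimC1 lie in the longest 2 length deciles. Their count is thus below the 51.9% to 57.1% of such genes, as well as below the 38.3% of all protein-coding genes. This was not tested.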

How the data were processed

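The deposited file is a list of peaks with chromosome, start, end and width in bp for Oregon-R discs, with antibody libraries set against libraries without primary antibody, per the labels. It holds no count, signal, score or p-value. The build is dm6, and Bowtie2, SAMtools, bedtools, edgeR and deepTools are named without versions or roles, per the submitters' processing notes. How peaks were called, at which threshold, and whether libraries were pooled is not given in the sources used here. Width equalled end minus start plus 1 in all 6914 peaks, so both ends are included.

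Overlaps with gene bodies of the RefSeq Release 6 table were computed in Python 3.11.15 with numpy 2.4.6 and checked on simulated intervals. A gene had a peak at 1 bp or more of overlap. Length deciles were taken over 13922 protein-coding genes. Intervals used as a yardstick for other settings are 95% Wilson intervals (SciPy 1.17.1) over genes or 50 bp steps.

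The 9 genes, the other lists and the settings were chosen with earlier results of these data known. Named neighbours are the nearest protein-coding gene on each side and those sharing a peak; from other lists, the 3 most covered genes and the 2 longest without a peak, and genes named beyond this rule were chosen after their values were seen. The symbol nos was read as nanos. A planned search of promoter motifs was not run, as no sequence was used.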

Additional observations from a re-analysis of the deposited data

How the results depend on the processing

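No paired analysis was possible because the peak list gives no value per library, and no replicate could be left out. The 9 genes with a body peak became 5 when at least 50% of the body had to be covered (without E2f1, E2f2, Rbf2 and mip40). The count was 6 with the peak midpoint in the body (without Rbf2, mip40 and Caf1-55), 7 with the wider part of the peaks, at or above the median width (without E2f2 and mip40), 8 at 150 bp of overlap (without mip40), and 9 with peaks of at least 500 bp or without shared stretches. The 5 genes covered over at least 75% became 4 with the wider peaks or shortened peaks and 3 without shared stretches, a comparison added after the data were seen. Body or flanks gave 9 of 9 genes with flanks of 5 or 2 kb and with either peak filter. The median covered share of the 9 genes moved from 75.3% to 52.0% without stretches shared with another gene, where mip130 fell to 32.5%, and was 67.1% with the wider peaks and 73.7% with peaks shortened by 50 bp at both ends. The background of 38.3% was 33.9% over all annotated genes, 44.5% in the length range of the 9 genes, 27.9% by midpoint, 18.3% at 50% coverage and 28.4% with the wider peaks. Peak strength is unknown, and signal too weak for the authors' peak calling is not seen.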

Other observations

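Genes of other complexes that contain Caf1-55 were marked in 9 of 10 cases, with a median covered share of 78.1% and 6 genes covered over at least 75%, against 38.3% and 11.1% of all protein-coding genes. The remodelling genes Nurf-38, Iswi and E(bx) of NURF were covered to 100%, 96.8% and 93.4%. The genes of the other CAF-1 subunits, listed among their synonyms as CAF1-p180 and CAF1-p105 and named after their values were seen, were covered to just 7.20% and 7.87%, far from the 88.7% of Caf1-55 itself. Of the Polycomb genes, esc had no peak, whereas Su(z)12 and E(z), named after their values were seen, were covered to 76.1% and 51.3%.

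The E2F targets were uneven by role, in a split made after the values were seen and not tested. The 6 genes of mitotic entry (CycA, CycB, Cdk1, stg, polo and aurA) all had a body peak, 5 were covered over at least 50%, and their median covered share was 70.0%. Of the other 18 targets, mostly genes of DNA replication, 14 had a body peak, 2 were covered over at least 50% (PolA1 and Orc2) and the median was 9.77%. Over all protein-coding genes 38.3% had a body peak and 18.3% were covered over at least 50%. The median lengths of these sets were 3620.5 and 2671 bp.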
